A study of Mus musculus with 21 samples.

Results

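The genes described here were 10 genes of cerebellar neurons and their precursors, namely Pcp2, Cbln1, Cbln3, Gabra6, Zic1, Zic2, Car8, Fat2, Barhl1 and En2, put together by name to follow how much cerebellar RNA each brain sample held. Of the 16318 genes in the deposited table, 9 of these 10 had a row, and Barhl1 was not analysed here. The genes were picked with their counts in these mice in view, so their levels and the way they vary together are given as descriptions, without a test. RNA was sequenced from brains of 21 mice of the SAMP8 strain, a naturally occurring senescence-accelerated line, all about 6 months old at the end of dosing. From 4 months of age, 12 mice (6 female, 6 male) were injected under the skin with PBS every other day for 8 weeks. The other 9 mice (3 female, 6 male) received HsTX1[R14A] at 1 mg/kg on the same schedule. This peptide blocks Kv1.3, a voltage-gated potassium channel of microglia and T cells. The study places Kv1.3 also in some neurons, in other glia and in neural progenitor cells. Each of these mice gave 1 library and has its own number, and all 21 are labelled SAMP8. The study's methods speak of whole brain, and the labels give brain and the strain, with sex entered in the field for cell type. Which regions each piece of tissue held was not given in the sources used here.

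The cerebellum holds a very dense layer of granule neurons, whose axons, the parallel fibres, form synapses on the dendrites of Purkinje cells, the only output neurons of its cortex. Few genes are as restricted to one brain region as some of those of granule and Purkinje cells, so their RNA in a brain extract is used as a mark of cerebellar tissue. Others of the genes are also used by neurons or support cells elsewhere: Zic1 and Zic2 in the septum and meninges, Cbln1 in the thalamus and other nuclei. In extracts of bulk tissue such as these, fewer cells of a type and less RNA per cell cannot be told apart.

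The main feature of the data was a single animal. HsTX1[R14A] mouse 74, a male, had the highest level of all 21 mice in 9 of 9 genes, while 387 of the 16303 genes tested (2.37%) were highest in this mouse. In the other mice the genes fell into 2 sets, a division made after the values were seen. Gabra6, Cbln3, Fat2, Pcp2 and En2 were below 1 CPM in 12 to 16 mice (with 3 counts or fewer of Gabra6, Fat2 and Pcp2 in 8, 8 and 9 mice), whereas Cbln1, Car8, Zic1 and Zic2 were read at 143 counts or more in every mouse. Library totals ran from 14917174 to 47613792 counts, so that 3 counts, the limit that a count of 0 allows, corresponded to 0.0609 to 0.213 CPM (read counts relative to a library size scaled by TMM, the trimmed mean of M values). Mouse 74, with 34846637 counts, was not the deepest library.

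The stretches before the annotated starts of 3 of the restricted genes are shown because these genes moved together most closely across the mice. Sequences were taken from RefSeq (GRCm38.p6), whose table held windows for 5 of the 9 genes with a row, and are given 5′ to 3′ on the strand of the gene, leaving out bases inside annotated exons. Pcp2 has 4 annotated starts in the table, and the one farthest upstream was used. The Gabra6 stretch is chr11:42321073-42321322, the Cbln3 stretch chr14:55884393-55884506 and the Pcp2 stretch chr8:3625607-3625778, all on the minus strand.
Gabra6: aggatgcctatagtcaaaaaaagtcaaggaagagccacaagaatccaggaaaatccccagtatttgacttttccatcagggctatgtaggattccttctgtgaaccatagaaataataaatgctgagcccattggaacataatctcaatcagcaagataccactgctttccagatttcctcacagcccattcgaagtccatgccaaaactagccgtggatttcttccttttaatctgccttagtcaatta
Cbln3: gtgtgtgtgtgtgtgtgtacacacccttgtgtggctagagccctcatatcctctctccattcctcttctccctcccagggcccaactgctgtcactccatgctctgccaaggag
Pcp2: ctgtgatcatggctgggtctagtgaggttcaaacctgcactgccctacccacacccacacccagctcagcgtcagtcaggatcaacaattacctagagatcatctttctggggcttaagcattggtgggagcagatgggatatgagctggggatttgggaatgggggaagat
In the whole windows of 250 bases, 3 motifs were searched on both strands. The E-box CAGCTG, found in 13% of 32851 promoter windows, was in 0 of the windows of these 3 genes. The nuclear receptor half-site AGGTCA, found in 14% of the windows, occurred in 3 of the 4 windows of Pcp2, which overlap each other (in the one used, in the part not printed) and in 0 of the windows of Gabra6 and Cbln3. Windows of Fat2 and Zic1 are not printed, and AGGTCA was in that of Fat2 only. The full nuclear factor I palindrome, in 0.0365% of the windows, was in 0 of the 3. These are matches of letters only, in bases next to the start.

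Gabra6 encodes the alpha 6 subunit of the GABA-A receptor, which in the brain is made almost solely by cerebellar granule neurons. The gene lies on chromosome 11 (42306437-42321072, minus strand, GRCm38) and is protein coding. In the 12 PBS mice its level ran from 0.0366 to 15.04 CPM with a median of 0.127, and in the 9 HsTX1[R14A] mice from 0 to 90.1 CPM with a median of 0.548. Mouse 74 accounted for the top value, with 3293 counts. PBS female 73 followed at 15.04 CPM, and PBS female 85 (3.55), HsTX1[R14A] female 71 (3.37) and HsTX1[R14A] male 93 (2.23) came next. The remaining 16 mice were below 1 CPM, and 8 mice had 3 counts or fewer. Only mouse 74 lay above the PBS range, so the groups overlapped otherwise.

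Cbln3 encodes a secreted protein of granule neurons that assembles with Cbln1, the organiser of parallel fibre synapses. It lies on chromosome 14 (55878913-55884392, minus strand). Cbln3 ran from 0.176 to 15.1 CPM in PBS mice (median 0.340) and from 0.0518 to 128 CPM in HsTX1[R14A] mice (median 1.39). The order at the top was that of Gabra6, with mouse 74 at 128 CPM, mouse 73 at 15.1, mouse 85 at 5.63, mouse 71 at 4.01 and mouse 93 at 2.93. Among 6 mice with at least 20 counts of both genes, the ratio of Cbln3 to Gabra6 counts lay between 1.00 and 1.59, while their Gabra6 levels ranged from 0.548 to 90.1 CPM. In mouse 74 this ratio was 1.42 (95% interval 1.36 to 1.49, counting error only), and in mouse 73 it was 1.00 (0.828 to 1.22). The cut at 20 counts left out mice with relatively more Cbln3. Among them were PBS mouse 91 (34 counts of Cbln3 and 8 of Gabra6) and HsTX1[R14A] mice 81 (32 and 8) and 92 (28 and 12). The narrow range of the ratio therefore holds only for the 6 mice that passed the cut.

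Fat2, a giant atypical cadherin found on the parallel fibres, lies on chromosome 11 (55250609-55336564, minus strand). It was at 51.2 CPM in mouse 74 and at 3.34 CPM in mouse 73, the next highest, a 15.3-fold step. PBS mice ran from 0.0366 to 3.34 CPM (median 0.128) and HsTX1[R14A] mice other than mouse 74 from 0.0518 to 2.57 CPM. Relative to Gabra6, Fat2 was less even than Cbln3, with count ratios of 0.222 to 1.37 over 5 mice.

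Cbln1, which bridges neurexins on the parallel fibre to the glutamate receptor GluD2 on the Purkinje cell, behaved differently from its partner Cbln3. It lies on chromosome 8 (87468405-87472609, minus strand). All 21 mice expressed it, from 5.97 to 26.5 CPM in PBS mice (median 12.9) and from 7.25 to 98.8 CPM in HsTX1[R14A] mice (median 12.5). Mouse 74 was 2.48-fold above mouse 71 (39.8 CPM), and these 2 HsTX1[R14A] mice exceeded every PBS mouse. Mouse 93, among the high mice for Gabra6, was near the bottom of the Cbln1 range at 7.54 CPM.

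Of the Purkinje cell genes, Pcp2 (also called L7), a modulator of G protein signaling, lies on chromosome 8 (3623371-3625545, minus strand). It was read at 0 counts in 4 mice (PBS 82, 84 and 90, and HsTX1[R14A] 89) and at 1424 counts, or 38.9 CPM, in mouse 74. The median of the PBS group was 0.0908 CPM, and that of the HsTX1[R14A] group was 0.397 CPM. After mouse 74 came mouse 73 at 5.99 CPM, mouse 85 at 2.64 and mouse 93 at 1.77, so that the high mice for this Purkinje gene were those of the granule genes. Its count ratio to Gabra6 was 0.315 to 0.795 over 5 mice.

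Car8 encodes a carbonic anhydrase-related protein without enzyme activity, which binds the inositol trisphosphate receptor and is abundant in Purkinje cells. It lies on chromosome 4 (8143362-8239041, minus strand). Its levels were 10.8 to 40.3 CPM in PBS mice (median 15.1) and 7.39 to 16.5 CPM in 8 of the HsTX1[R14A] mice, against 111 CPM in mouse 74. Mouse 73 was again second at 40.3 CPM. Apart from mouse 74, the HsTX1[R14A] mice had a mean of 11.6 ± 3.32 CPM (SD, n = 8) and the PBS mice one of 18.01 ± 8.30 CPM (SD, n = 12), with overlapping ranges.

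En2, the engrailed homeobox gene of the midbrain and hindbrain, lies on chromosome 5 (28165694-28172166, plus strand). It was below 1 CPM in 14 mice, with a median of 0.741 CPM after PBS and of 0.691 CPM after HsTX1[R14A]. The highest values were 13.7 CPM in mouse 74, 3.18 in mouse 71 and 2.16 in mouse 73. The count ratio of En2 to Gabra6 was 0.152 in mouse 74 and 0.144 in mouse 73, but 0.945 in mouse 71 and 1.26 in mouse 72. Among mice with at least 20 counts of both genes, this was the widest span of the 4 genes compared. It was 8.77-fold, against 1.59-fold for Cbln3, whose span depends on that cut.

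The zinc finger genes Zic1 and Zic2, which keep granule precursors dividing, differed least between mouse 74 and the others. Zic1 (chromosome 9, 91358058-91365810, minus strand) ran from 21.5 to 111 CPM in PBS mice (median 67.9) and from 23.6 to 165 CPM in HsTX1[R14A] mice (median 51.4). Zic2 (chromosome 14, 122475435-122479852, plus strand) ran from 5.49 to 26.2 CPM (median 14.8) and from 8.19 to 38.6 CPM (median 14.6). In both genes the next mouse was a PBS mouse, which mouse 74 exceeded 1.48-fold for Zic1 and 1.47-fold for Zic2.

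**Figure D1:**
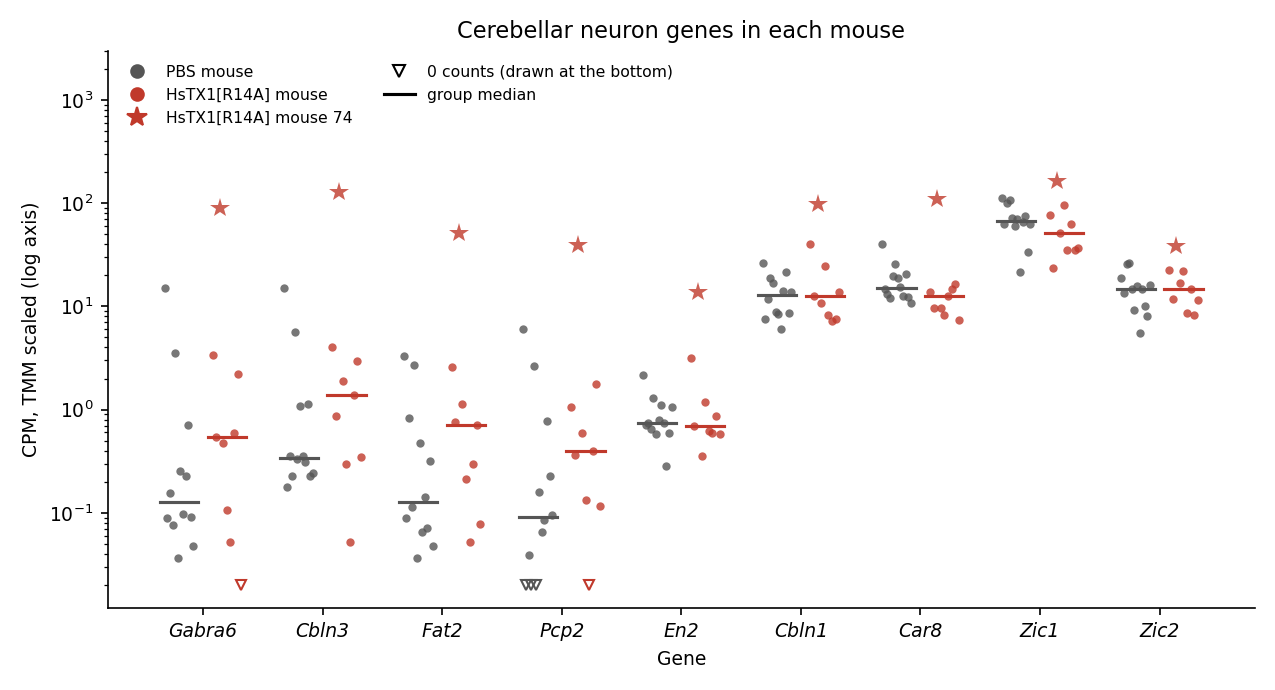
Level of each of the 9 genes (horizontal axis) in each of 21 mice in CPM on a log axis, with PBS mice in grey and HsTX1[R14A] mice in red, and a line at each group's median. HsTX1[R14A] mouse 74, drawn as a star, is the highest point for all 9 genes, and open triangles mark mice with 0 counts (4 for Pcp2, 1 for Gabra6).

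Divided by the length of the longest annotated transcript, levels can be compared roughly between genes. The transcripts made in these brains may be shorter, so the order is approximate. In the median mouse, Zic1 was highest at 11.3 CPM per kb, followed by Zic2 (6.04), Cbln1 (4.46) and Car8 (3.59), and the restricted genes lay between 0.0205 (Fat2) and 0.209 (En2) CPM per kb. In mouse 74 the order was another one. Gabra6 led at 36.5 CPM per kb, and Cbln1 (35.3), Zic1 (29.4), Car8 (28.8), Cbln3 (26.3) and Pcp2 (24.2) followed within a narrow range. Zic2 (15.8), En2 (3.88) and Fat2 (3.53) were lower. This order depends on the lengths used. Before the division, Cbln3 (128 CPM) stood above Gabra6 (90.1 CPM) in mouse 74, and the length used for Cbln3 was 4866 bases. Gabra6 in mouse 74 was 469-fold above the median of the other 20 mice, Cbln3 361-fold, Pcp2 266-fold and Fat2 200-fold, against 19-fold for En2, 8.22-fold for Car8, 8.10-fold for Cbln1, 2.63-fold for Zic2 and 2.62-fold for Zic1. The medians behind the folds of Gabra6, Cbln3, Pcp2 and Fat2, at 0.146 to 0.354 CPM, rest on few counts.

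Summed over Gabra6, Cbln3, Fat2, Pcp2 and En2, the PBS mice held 0.988 to 41.6 CPM (median 1.60) and the HsTX1[R14A] mice 0.777 to 322 CPM (median 3.28), or at most 14.2 CPM without mouse 74. Summed over all 9 genes, mouse 74 held 735 CPM, and the other 20 mice 49.999 to 239 CPM.

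**Figure D2:**
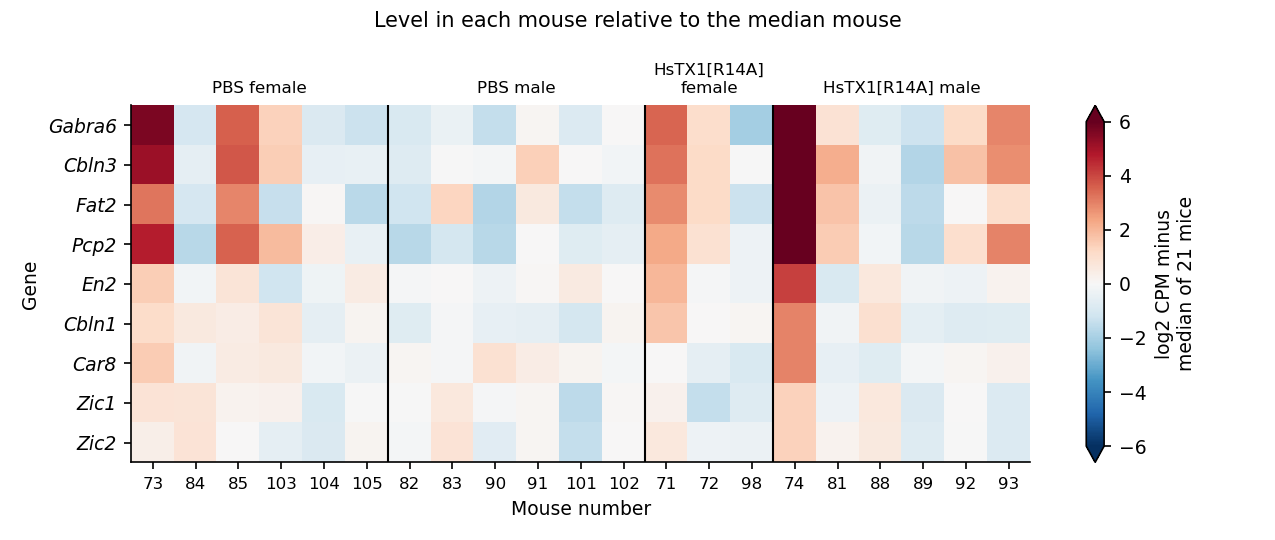
Each row is a gene and each column a mouse, grouped by treatment and sex. Color gives log2 CPM minus the median of the 21 mice and is capped at 6. The column of HsTX1[R14A] male 74 is red in all 9 rows. PBS females 73 and 85, HsTX1[R14A] female 71 and male 93 are red mainly in Gabra6, Cbln3, Fat2 and Pcp2.

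Over the 21 mice, the genes' log2 CPM values rose and fell together to different degrees. Among the 10 pairs within Gabra6, Cbln3, Fat2, Pcp2 and En2, the median Pearson r was 0.90 (range 0.69 to 0.97). Without mouse 74 it was 0.82 (range 0.40 to 0.95). En2 followed the others less closely, as its pairs without mouse 74 lay at 0.40 to 0.54. Pairs among Gabra6, Cbln3, Fat2 and Pcp2 then lay at 0.79 to 0.95. Among the 6 pairs within Cbln1, Car8, Zic1 and Zic2 the median was 0.62, falling to 0.46 without mouse 74. For the 20 pairs across the sets it was 0.63 and then 0.30. Without mice 74 and 73, the 2 farthest from the median, the 3 medians were 0.76, 0.35 and 0.14. Over all 36 pairs, the median r was 0.69, and 0.42 as Spearman's rho or without mouse 74. The points share library depth and scaling, and many values of the restricted genes rest on a few counts, so no p is given.

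**Figure D3:**
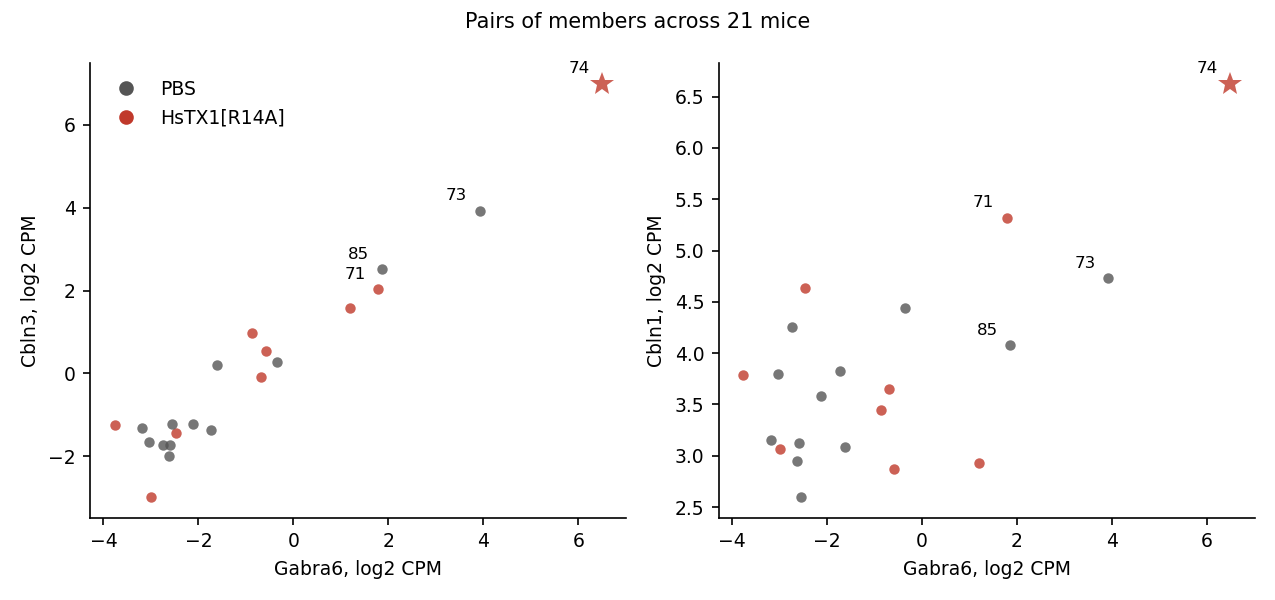
Log2 CPM of Cbln3 (left) and Cbln1 (right) against Gabra6, 1 point per mouse, with PBS mice in grey, HsTX1[R14A] mice in red and mouse 74 as a star. Cbln3 follows Gabra6 along a line through mice 71, 85 and 73 up to mouse 74, whereas the points of Cbln1 are more scattered.

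The study compared HsTX1[R14A] with PBS to see how treatment affected the brain as a whole. In edgeR's quasi-likelihood test with sex in the model, 0 of the 9 genes were called at a Benjamini-Hochberg adjusted p of 0.05 over all genes tested, against 31.6% of the 16303 genes (15.5% higher and 16.1% lower). The unadjusted p was below 0.05 for 4 of the 9, and for 46.4% of all genes. With limma/voom, 0 of the 9 were called as well. DESeq2 also called 0, but it gave an adjusted p for Cbln1, Zic1 and Zic2 only, so no other of the 9 could be called. The fitted differences had wide errors and depended on the method. In edgeR, the log2 differences between HsTX1[R14A] and PBS mice were 3.80 ± 1.90 (SE) for Gabra6, 3.51 ± 1.67 for Cbln3, 3.41 ± 1.69 for Pcp2, 3.198 ± 1.33 for Fat2, 1.42 ± 0.59 for En2 and 1.03 ± 0.45 for Cbln1. Car8 (0.18 ± 0.47), Zic1 (-0.14 ± 0.33) and Zic2 (0.21 ± 0.29) were near 0. On the same 21 mice, limma/voom gave 1.30 for Gabra6, 1.26 for Cbln3, 1.57 for Pcp2, 1.58 for Fat2, 0.60 for En2 and 0.57 for Cbln1, and DESeq2 gave 5.16, 4.15, 5.23, 3.65, 1.40 and 1.03. Adjusted p from edgeR ran from 0.0677 for Fat2 to 0.783 for Car8.

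These values rested on mouse 74. Without it, the log2 fold changes were 0.34 ± 1.07 for Gabra6, 0.34 ± 0.86 for Cbln3, 0.52 ± 1.02 for Pcp2, 0.39 ± 0.74 for Fat2, 0.23 ± 0.34 for En2 and 0.32 ± 0.27 for Cbln1. Car8 turned to -0.63 ± 0.24, with an adjusted p of 0.0562 in edgeR's test, and Zic1 stood at -0.41 ± 0.29 and Zic2 at -0.02 ± 0.27. Again 0 of 9 genes were called, and 22.9% of all genes tested were called in the same fit. DESeq2 gave no adjusted p for 6 of the genes (Pcp2, Cbln3, Gabra6, Car8, Fat2 and En2) with all mice. Mean levels show the same dependence: Gabra6 was at 10.8 ± 29.7 CPM (SD, n = 9) in HsTX1[R14A] mice, 0.922 ± 1.22 CPM (SD, n = 8) without mouse 74, and 1.70 ± 4.32 CPM (SD, n = 12) in PBS mice.

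**Figure D4:**
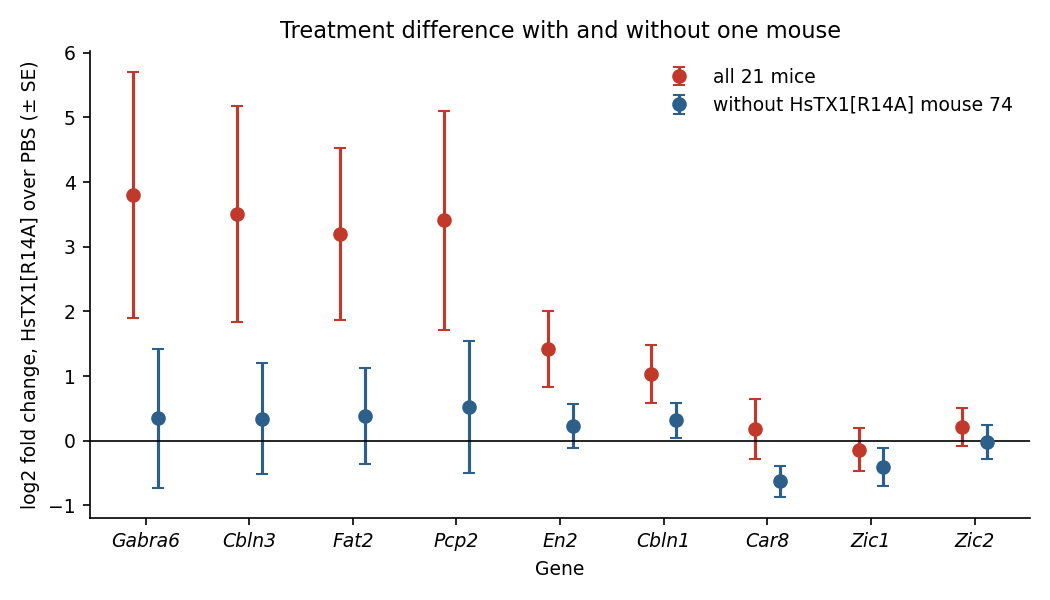
Fitted log2 fold change, HsTX1[R14A] mice over PBS mice (vertical axis, with SE) for each gene, with all 21 mice in red and without HsTX1[R14A] mouse 74 in blue. With all mice, Gabra6, Cbln3, Fat2 and Pcp2 stand between 3.198 and 3.80, and without mouse 74 these 4 genes stand between 0.34 and 0.52.

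The columns of the deposited table spell the mouse names in either of 2 forms, SAMP8 (10 PBS and 5 HsTX1[R14A] mice) or SAMP (2 and 4), and what the forms stand for was not given in the sources used here. Mice 71, 72, 73, 74, 85 and 93 were all of the SAMP8 form. The 6 mice of the SAMP form held 0.777 to 4.45 CPM summed over the 5 restricted genes. The 14 mice of the SAMP8 form other than mouse 74 held 0.988 to 41.6 CPM, so the forms overlapped. Within the SAMP8 form the fitted log2 fold change was 4.93 for Gabra6 and 1.62 for Cbln1, and within the SAMP form it was 0.25 and -0.18. The fit within the SAMP8 form included mouse 74, and a fit of that form without it is not given here. In either form edgeR called 0 genes. Libraries also differed in how levels depended on transcript length. This slope was higher in HsTX1[R14A] mice (0.10 ± 0.12, SD, n = 9) than in PBS mice (-0.08 ± 0.16, SD, n = 12). With it as a covariate, edgeR called 0 genes. Mouse 74 had a slope of 0.09, near the mean of its group.

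Between the sexes, 0 of the 9 genes were called in edgeR's test, against 0.0552% of all genes (0.0307% higher and 0.0245% lower in males). In PBS mice, Gabra6 was at 3.25 ± 5.93 CPM (SD, n = 6) in females and 0.143 ± 0.0849 CPM (SD, n = 6) in males, the female mean resting on mice 73 and 85. Pcp2 in PBS males was at 0.0580 ± 0.0600 CPM (SD, n = 6), against 1.62 ± 2.35 CPM (SD, n = 6) in PBS females. The treatment by sex interaction was called by edgeR for 0 of 9 genes and for 0% of all genes. The unadjusted p was below 0.05 for 4 of the 9 (Pcp2, Gabra6, Cbln3 and Fat2) and for 270 of all genes (1.66%). This fit included mouse 74, a male with 90.1 CPM of Gabra6, while the other HsTX1[R14A] males held at most 2.23 CPM. How far the 4 unadjusted p-values depend on that mouse was not tested. Of the high mice, HsTX1[R14A] 74 and 93 were males, and PBS 73 and 85 and HsTX1[R14A] 71 were females.

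Other genes of the cerebellum, from 3 lists, moved in mouse 74 as well. Of 62 tested genes, 23 (37.1%) were highest in mouse 74, against the 2.37% of all genes. By list these were 9 of 20 granule neuron genes, 11 of 27 Purkinje cell genes and 3 of 15 genes of other cerebellar cells and of the region. The median difference of mouse 74 from the other 20 mice was 0.60, 0.65 and 0.51 on the log2 scale, against 4.12 for the 9 genes and 0.01 for all genes. The largest were in Arhgef33 (14.1 CPM in mouse 74 against 2.85 in the next mouse), Ppp1r17, a phosphatase inhibitor of Purkinje cells (19.1 against 5.64), and Barhl2 (5.39 against 1.94). Chn2 stood at 125 against 53.3 CPM. By contrast, Calb1, also made by many forebrain neurons, was at 204 CPM in mouse 74 and 255 CPM in the highest mouse.

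In the lists for telencephalic (15), striatal (13), hypothalamic (9) and thalamic (9) neurons, astrocytes, oligodendrocytes, microglia and endothelium (10 each), choroid plexus (9), meninges (10) and erythrocytes (6), 0 genes were highest in mouse 74. Its median difference from the other mice was 0.12 for telencephalic genes, -0.21 for striatal genes, 0.12 for thalamic genes, -0.54 for hypothalamic genes and -0.62 for meningeal genes, which are log2 values. Of 14 Hox genes of the hindbrain and spinal cord, 0 had a row. The deposited table held only the 16318 genes that the study counts as detected, so no level can be given for these Hox genes. The part of the tissue taken in the levels of mouse 74 was not tested.

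**Figure D5:**
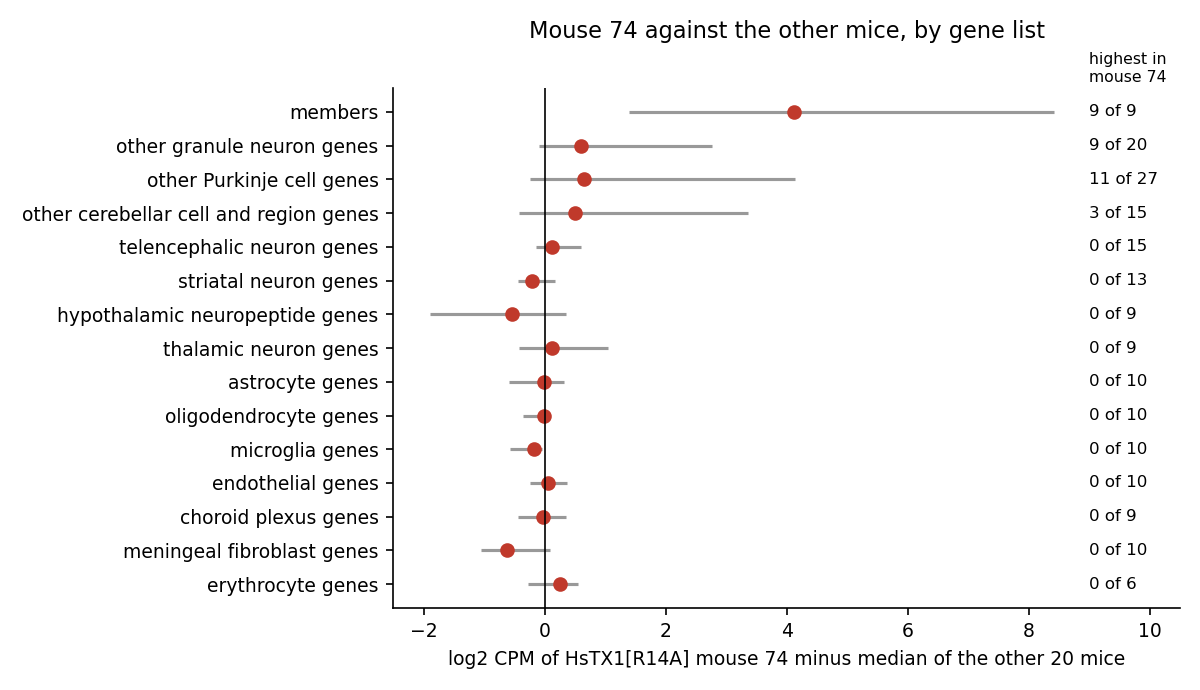
Log2 CPM of HsTX1[R14A] mouse 74 minus the median of the other 20 mice, for 15 gene lists. Points are list medians, lines run from the lowest to the highest gene, and the column on the right counts the genes that were highest in mouse 74, which is 9 of 9 for the genes described and 0 for all 11 lists of other regions and cell types.

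For the treatment, 19 of the 62 other cerebellar genes rose and 3 fell in edgeR's test, against 15.5% higher and 16.1% lower over all genes, and their median log2 fold change was 0.35, against -0.01 for all genes. Without mouse 74 the counts were 10 and 5, against 11.1% and 11.8% over all genes, and the median was 0.18. Granule neuron genes had 5 higher and 0 lower (3 and 0 without mouse 74), Purkinje cell genes 9 and 2 (4 and 3) and the other cerebellar genes 5 and 1 (3 and 2). At the ends of the granule list stood Kcnk9, a leak potassium channel, at a log2 fold change of 1.26 ± 0.29 (adjusted p = 0.0151, edgeR), and Fgf5 at -0.17 ± 0.18 (adjusted p = 0.471). Kcnk9 was not highest in mouse 74 (3.83 CPM, with 7.11 in the highest mouse) and its adjusted p without that mouse was 0.0273. At the ends of the Purkinje list stood Lhx1 at 1.36 ± 0.60 (adjusted p = 0.0816, edgeR) and Pcp4, a calmodulin regulator, which fell by 0.59 ± 0.18 on the log2 scale (adjusted p = 0.0237). At the ends of the list of other cerebellar genes stood Barhl2, a relative of Barhl1, at 1.74 ± 0.52 (adjusted p = 0.0225, edgeR, and 0.0531 without mouse 74) and Fabp7, a fatty acid binding protein of glia, which fell by 0.68 ± 0.20 on the log2 scale (adjusted p = 0.0206).

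The 8 genes most like the 9 were taken by their Pearson correlation over 21 mice with the mean centred log2 CPM of the 9, leaving out genes whose mean log2 CPM was under 1. They were Neurod1 (r = 0.83), a transcription factor of granule neurons, Cep76 (0.77), Gm2694 (0.76), Etv1 (0.75), Galnt15 (0.70), Homer3 (0.69), a scaffold protein of Purkinje cell synapses, Gprc5c (0.68) and Rgl3 (0.68). All 8 were highest in mouse 74, where Neurod1 was at 73.4 CPM against 19.7 CPM in the next mouse and Homer3 at 33.7 against 17.9 CPM. The selection set this in good part, because mouse 74 dominates the correlation. Without mouse 74, r was between 0.19 (Rgl3) and 0.59 (Neurod1).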

How the data were processed

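The deposited table held estimated counts per gene, which the authors made by aligning reads to GRCm38 with STAR and quantifying with Salmon in nf-core/rnaseq (version 3.2), without normalization. The labels name a SMARTER library kit and the study's methods an MGI directional kit. The authors' columns of fold change, p-value and FDR were not used, nor were 53 per-sample columns (37 of CPM, 16 of counts). Values were rounded before testing (90.496% already lay within 0.01 of an integer).

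After filterByExpr, which kept 16303 genes, TMM factors were computed and edgeR 4.0.16 (R 4.3.3) was run in 1 fit with sex and treatment, with Benjamini-Hochberg adjustment over all genes and a threshold of 0.05. The procedure was tested on simulated data. Levels are CPM on TMM-scaled library sizes, and log2 CPM carries a prior count of 2. Genes were named as all members, the largest and smallest treatment change in each of 3 cerebellar lists, and the 8 genes most like the members. Arhgef33, Ppp1r17, Chn2 and Calb1 were chosen after their values were seen. The members and lists were chosen with earlier results of these data known. Lengths, those of the longest transcript of each gene, and loci are from GENCODE for GRCm38. Alternatives were limma 3.58.1 with voom, DESeq2 1.42.0, RLE scaling, other filters, covariates and subsets, and each mouse left out. The study randomized mice to treatment within cages, but the sources used here do not give the cage of each mouse, so cage is not in the model. Intervals and limits cover counting error only.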

Additional observations from a re-analysis of the deposited data

Results flagged for a closer look

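In the HsTX1[R14A] group, the gap between the end mouse and its neighbor was taken as a share of the group's range (Dixon's ratio) for 24 quantities, and 9 lay above 0.493, the critical value for 9 mice, each with mouse 74 at the high end. Chance flags about 1 in 20 groups, but that rate does not apply here, because the genes were chosen with these counts in view, so the ratios are descriptions of how far it stood apart and not a test. Among the 9 cerebellar genes, the ratio was 0.704 for Car8 and 0.497 for Cbln3, and it was 0.52 for the mean score of the 9. These ratios were taken on log2 CPM, where low counts in the other mice widen the range. On that scale the rest of the 9 did not exceed the critical value. Some of them still stood far apart in CPM. Mouse 74 held 90.1 CPM of Gabra6, 51.2 of Fat2 and 38.9 of Pcp2. The other HsTX1[R14A] mice held at most 3.37, 2.57 and 1.77 CPM.

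The genes most like the score were selected by a correlation that mouse 74 dominates, so that their ratios were in good part set by the selection. They were 0.745 for Gm2694, 0.691 for Cep76, 0.629 for Neurod1, 0.609 for Rgl3, 0.581 for Etv1 and 0.502 for Gprc5c. The levels in mouse 74 were 15.998 CPM for Gm2694 (next mouse 7.73), 19.8 CPM for Cep76 (9.96), 119 CPM for Etv1 (82.7), 7.66 CPM for Gprc5c (3.11) and 6.81 CPM for Rgl3 (3.38).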

How the results depend on the processing

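No paired analysis was possible because the cage of each mouse, within which treatment was assigned, was not given in the sources used here, and the groups share no mouse numbers. The number of genes called for treatment (5144) was 1999 with the name form as covariate, 0 with the length slope as covariate, 2984 without a sex term, 0 within either name form, and 2289 to 6614 with 1 mouse left out. Of the 9 genes, 1 was called without a sex term (Fat2, adjusted p = 0.0421, edgeR), and 0 to 1 with 1 mouse left out (Fat2 without PBS mouse 85, Cbln1 without HsTX1[R14A] mouse 93). For sex, 9 genes became 26 with DESeq2 and 1 among genes with 10 counts or more in every animal. The median correlation of 0.69 was 0.42 as Spearman's rho and 0.416 to 0.717 with 1 mouse left out. Treatment log2 fold changes that changed sign were Car8 with voom (-0.20) and in the SAMP form (-0.31), Zic2 with the length slope (-0.24), Zic1 in the SAMP8 form (0.10), and Cbln1 (-0.18) and En2 (-0.32) in the SAMP form. With 1 mouse left out, Car8 ran from -0.63 to 0.33, Zic2 from -0.0167 to 0.35 and Zic1 from -0.41 to 0.0227. The male over female value changed sign for Zic2 (-0.0614) and Fat2 (-0.21) with voom and for Fat2 with DESeq2 (-0.61). With 1 mouse left out it ran from -2.38 to 0.00114 for Pcp2, -2.04 to 0.46 for Cbln3, -2.91 to 0.35 for Gabra6, -0.0718 to 0.23 for Zic1, -0.14 to 0.14 for Zic2, -0.0229 to 0.70 for Car8, -1.73 to 0.91 for Fat2 and -0.62 to 0.45 for En2. The causes were not tested. In most mice Gabra6, Fat2 and Pcp2 had few counts, which limits what can be told of their differences. The values without mouse 74 for lists and likeness were chosen after seeing the data.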
